A study of Mus musculus with 10 samples.

Results

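Bglap and Bglap2 are the mouse osteocalcin genes that bone cells use, and they lie beside each other on chromosome 3. They were taken by gene name from the deposited table, where they are 2 of 23358 rows. Their levels were followed on days 3, 6 and 10 of bone-forming culture with and without an EZH2 inhibitor. The RNA of both was far more abundant in the GSK126 libraries on days 6 and 10, and it increased with culture time in both arms. Over these 3 time points the fitted difference was 10.1-fold for Bglap, which passed the test, and 6.56-fold for Bglap2, which did not.

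Osteocalcin is a small protein that mature osteoblasts secrete into bone matrix, and its RNA is a standard marker of late osteoblast differentiation. Vitamin K-dependent carboxylation of glutamate residues, which makes them Gla residues, lets the protein bind calcium in hydroxyapatite. In the mouse the gene exists as near-identical copies, of which Bglap and Bglap2 are known as the bone forms. EZH2 is the catalytic subunit of Polycomb repressive complex 2, which methylates lysine 27 of histone H3, a mark of repressed chromatin.

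MC3T3 is an established mouse pre-osteoblast line from the skull vault. One arm received 5 µM GSK126, an inhibitor of EZH2, and the other received vehicle, and the osteogenic medium of both held ascorbic acid plus beta glycerol phosphate. The compound or vehicle was given at the start and again after 3 days and was taken away on day 6, so the day 10 libraries follow its removal. Days 3, 6 and 10 each gave 1 RNA library of either treatment (6 libraries), and H3K27me3 was mapped after 24 h with 1 ChIP and 1 input library per treatment (4 libraries). Nothing in the labels says that the RNA libraries came from separate cultures, so a p-value covers the spread among these libraries alone, which may be technical. In the fit with day and treatment as terms, that spread is the change of the GSK126 difference between days plus library noise.

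In the deposited table (build mm10) Bglap stood at chr3:88383495-88384464, with a gene model of 624 bases, and Bglap2 at chr3:88377736-88378699, with a model of 471 bases. The 2 models were 4795 bases apart. Reads that match several copies cannot be placed with certainty, and how they were counted is not given in the sources used here, so the split between copies is uncertain at every value below.

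The RefSeq promoter table held an entry for 1 of the 2 genes, Bglap. Its 250 bases before the transcription start (GRCm38.p6, chr3:88384467-88384716, minus strand) are shown because they hold the sites through which bone transcription factors are known to act on osteocalcin.
Bglap promoter: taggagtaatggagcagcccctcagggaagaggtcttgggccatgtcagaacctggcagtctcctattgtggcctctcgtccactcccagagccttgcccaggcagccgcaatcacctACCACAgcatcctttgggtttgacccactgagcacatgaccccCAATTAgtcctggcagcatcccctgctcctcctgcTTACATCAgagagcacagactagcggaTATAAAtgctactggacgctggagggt
Capitals mark 4 motifs, each found once, on the strand shown, in a search of both strands. ACCACA, the core bound by RUNX factors, began 132 bases before the start, and 14.0% of 32851 mouse promoters of this length held it. CAATTA, a core bound by homeodomain factors such as the DLX and MSX proteins, began 89 bases before the start and was in 7.17% of promoters. TTACATCA, the ATF4 site known as OSE1, began 54 bases before the start and was in 0.965%. TATAAA, the TATA box, began 27 bases before the start and was in 12.4%. An E-box, CANNTG, left in lower case, began 100 bases before the start and was in 66.2% of promoters. These matches describe letters in the window and not binding.

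The 6 RNA libraries held 97291878 to 111537936 counts, every count was even, and a fragment was taken as 2 counts. Of all rows, 14344 passed the filter on low counts, Bglap and Bglap2 among them. All 7 osteoblast markers were detected, at a summed 56191 to 77111 CPM (counts scaled to library depth by the TMM method) in GSK126 libraries and 55717 to 70251 in vehicle libraries. Most of each sum came from Col1a1 (at least 23743 CPM in each library) and Col1a2 (at least 26586), while Alpl was at 10.9 to 61.9 CPM. Summed markers of other lineages were 133 to 597 CPM in GSK126 and 87.5 to 245 CPM in vehicle libraries for 5 chondrocyte genes, with Acan at 0 in every library. Col2a1 was the largest of these, at 561, 246 and 106 CPM with GSK126 on days 3, 6 and 10, against 207, 56.4 and 58.7 with vehicle. Its fitted log2 difference of 1.47 did not pass (edgeR quasi-likelihood test, adjusted p = 0.0594). Of 4 chondrocyte genes tested, 3 differences were above 0, and Sox9 was at -0.23. The 5 adipocyte genes summed to at most 0.970 CPM in GSK126 and 0.448 in vehicle libraries, and the 5 endothelial genes, with Kdr at 0, to at most 0.263 in GSK126 and 0.139 in vehicle libraries. The 5 muscle genes, with Myod1 at 0, reached 4.83 CPM in GSK126 and 3.59 in vehicle libraries. The 6 blood cell symbols listed matched 5 rows, which reached 20.6 CPM in GSK126 and 19.8 in vehicle libraries, with Emr1 at 0. Most of these 2 sums came from Des (up to 4.58 CPM with GSK126) and Lyz2 (up to 19.7 with GSK126 and 18.9 with vehicle). Of these lists, 1 to 4 members of each other lineage and all 7 osteoblast genes were tested. Ibsp, of the osteoblast list, rose with GSK126 and no other tested member rose or fell, where 1.01% of all genes rose and 0.272% fell. The part of the chondrocyte genes in the osteocalcin difference was not tested. In bulk RNA, more osteocalcin-producing cells and more osteocalcin RNA per cell cannot be told apart.

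Bglap had 324 counts on day 3, 7600 on day 6 and 18554 on day 10 in GSK126 libraries, against 80, 368 and 2126 in vehicle libraries. As levels, these were 2.84, 76.8 and 197 CPM with GSK126, against 0.693, 3.59 and 22.0 CPM with vehicle. The GSK126 library was the higher one on each day, and each arm increased from one time point to the next. Bglap2 had 96, 3048 and 5926 counts in GSK126 libraries, against 48, 236 and 960 in vehicle libraries. Its levels were 0.842, 30.8 and 62.8 CPM with GSK126, against 0.416, 2.30 and 9.92 CPM with vehicle. Bglap2 therefore followed the same course at a lower level.

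The order of the 6 libraries was the same for both genes, from vehicle on day 3 through GSK126 on day 3, vehicle on day 6, vehicle on day 10 and GSK126 on day 6 to GSK126 on day 10. The closest neighbours in that order for Bglap were GSK126 on day 3 and vehicle on day 6, at a ratio of 0.793 (95% interval 0.638 to 0.984, counting error only). For Bglap2 that ratio was 0.366 (0.256 to 0.516), and the closest neighbours were both day 3 libraries, with exact Poisson intervals of 0.621 to 1.12 CPM for GSK126 and 0.266 to 0.619 CPM for vehicle. With 1 library at each point, the spread between cultures is unknown for every step in this order.

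On the length-corrected RPKM scale of the authors, Bglap was at 3.75, 96.3 and 242 with GSK126, against 0.908, 4.51 and 28.1 with vehicle. Bglap2 was at 1.47, 51.2 and 102 RPKM with GSK126, against 0.722, 3.83 and 16.8 with vehicle. Per length, Bglap was the more abundant of both in every library. By RPKM, Bglap ranked 8631 on day 3, 459 on day 6 and 167 on day 10 among the rows of GSK126 libraries, against 10829, 7948 and 1918 in vehicle libraries. Bglap2 ranked 10335, 939 and 433 with GSK126, against 11060, 8429 and 3224 with vehicle. On days 6 and 10 both genes thus stood far higher in the ranking with GSK126 than with vehicle.

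**Figure D1:**
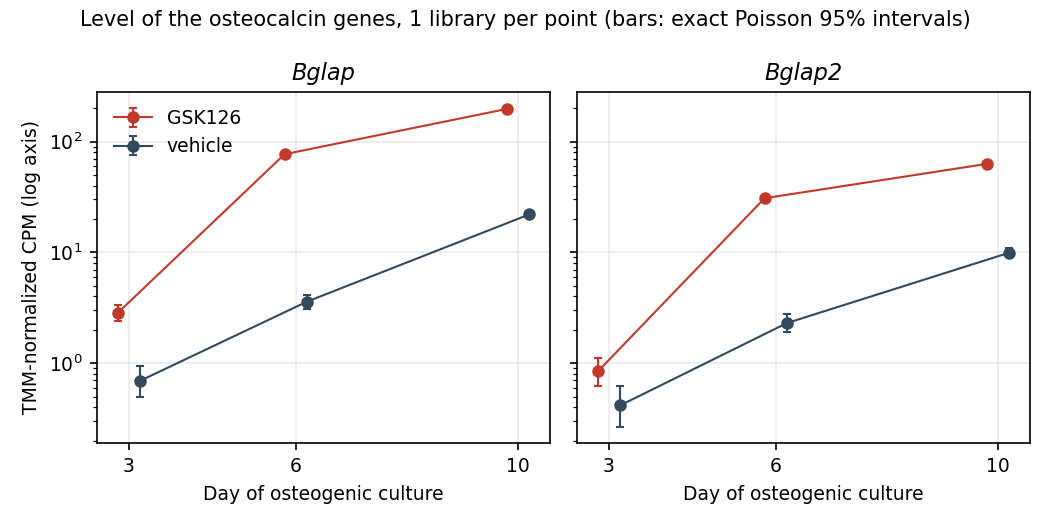
TMM-normalized CPM (log axis) of Bglap and Bglap2 against day of osteogenic culture, with GSK126 in red and vehicle in dark blue. Each point is 1 library, bars are exact Poisson 95% intervals for counting error, and points of one day are set slightly apart. The GSK126 points of Bglap and Bglap2 lie above the vehicle points on each day, up to 197 CPM for Bglap on day 10.

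GSK126 was compared with vehicle within each day first. The Bglap ratio was 4.10 on day 3 (exact binomial 95% interval 2.89 to 5.96), 21.4 on day 6 (18.5 to 24.9) and 8.96 on day 10 (8.41 to 9.55). The Bglap2 ratio was 2.03 on day 3 (1.22 to 3.46), 13.4 on day 6 (11.1 to 16.3) and 6.34 on day 10 (5.75 to 6.99). Each gene had its widest ratio on day 6 and its narrowest on day 3, and on each day the Bglap ratio was above the Bglap2 ratio. These are ratios of 1 library to 1 library, and the intervals cover counting error only.

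Among genes with at least 1 CPM in either library of the day, 1.51% were at least 2-fold higher with GSK126 on day 3, 4.12% on day 6 and 3.03% on day 10. Bglap was past 2-fold on all 3 days, and Bglap2 on days 6 and 10. Bglap2 was under 1 CPM in both day 3 libraries. Among all 14344 genes tested, 0.913% had a log2 ratio at least as high as that of Bglap on day 3, 0.153% on day 6 and 0.328% on day 10. For Bglap2 these shares were 4.25%, 0.369% and 0.669%.

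**Figure D2:**
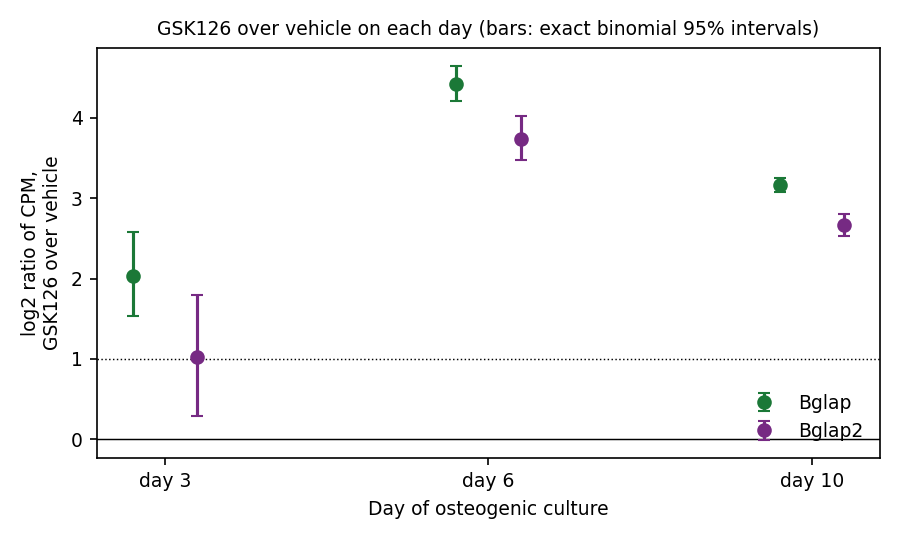
log2 ratio of CPM, GSK126 over vehicle, for Bglap and Bglap2 on days 3, 6 and 10, with exact binomial 95% intervals for counting error. The dotted line marks a 2-fold ratio. Bglap and Bglap2 are highest on day 6, at ratios of 21.4 and 13.4 before taking log2.

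Across the 3 pairs of libraries, with day as a term in the fit, Bglap rose with GSK126 by a log2 difference of 3.34 (SE 0.44, adjusted p = 0.0421, edgeR quasi-likelihood test, Benjamini-Hochberg adjusted). By size of the rise it ranked 41 among the 14344 genes tested. Among the 11087 of them with a mean log2 CPM of at least 1, it ranked 9. Bglap2 had a log2 difference of 2.71 (SE 0.47, ranks 84 and 24). It did not pass the threshold of 0.05 in the same edgeR fit (adjusted p = 0.0654). Of all genes tested, 1.01% passed in the higher direction, and 1 of the 2 osteocalcin genes did. The Bglap call did not hold without the day 6 pair (2.74, adjusted p = 0.0679) or the day 10 pair (3.45, adjusted p = 0.189), with a stricter filter on low counts (3.35, adjusted p = 0.0656), or without the day term (3.40, adjusted p = 0.747), all by edgeR. Of all genes, 18 were called higher without the day 6 pair and 4 without the day 10 pair. The unadjusted edgeR p of Bglap was 0.000127 and 0.00380 in these 2 fits, against 0.000396 in the reported fit. With Bglap and Bglap2 summed to 1 row, the difference was 3.10 (SE 0.45, adjusted p = 0.0501, edgeR). The sum sets aside how reads were split between the 2 rows, but not reads that may have been dropped or counted in both. The Bglap2 difference passed by DESeq2 (2.50, adjusted p = 0.00784), by limma-voom (2.91, adjusted p = 0.0234) and by edgeR without the day 3 pair (3.19, adjusted p = 0.0280). Of all genes, these 3 fits called 688, 198 and 202 higher, beside 145 in the reported fit.

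Osteocalcin RNA also increased with time in culture. Bglap was 27-fold higher on day 6 than on day 3 with GSK126 (23.1 to 31.8) and 5.18-fold with vehicle (3.66 to 7.48). Its step from day 6 to day 10 was 2.56-fold with GSK126 (2.47 to 2.66) and 6.12-fold with vehicle (5.23 to 7.20). The larger step thus came before day 6 in the GSK126 arm, and the intervals of both steps overlapped in the vehicle arm. For Bglap2 the first step was 36.5-fold with GSK126 and 5.53-fold with vehicle, and the second was 2.04-fold with GSK126 and 4.31-fold with vehicle. Over the whole course, day 10 against day 3, Bglap reached 69.2-fold with GSK126 and 31.7-fold with vehicle, and Bglap2 74.6-fold and 23.9-fold. The GSK126 library of day 6 held 3.49 times the Bglap level of the vehicle library of day 10 (3.26 to 3.74) and 3.10 times its Bglap2 level (2.80 to 3.45).

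Averaged over both arms, day 10 was above day 3 by a log2 difference of 5.66 for Bglap (SE 0.58, adjusted p = 0.0104) and 5.52 for Bglap2 (SE 0.64, adjusted p = 0.0119), by the edgeR quasi-likelihood test, Benjamini-Hochberg adjusted. Both genes rose, where 14.1% of all genes tested did. By size they ranked 14 and 17 among the 14344 genes tested, and 6 and 7 among the 11087 genes. Neither call held without the GSK126 library of day 3, at 4.71 for Bglap (adjusted p = 0.0512) and 4.33 for Bglap2 (adjusted p = 0.0505), or without the vehicle library of day 10, at 5.53 (adjusted p = 0.0626) and 5.50 (adjusted p = 0.0641), all by edgeR. Between days 3 and 6 the differences were 3.80 for Bglap (SE 0.56, edgeR adjusted p = 0.0636) and 4.07 for Bglap2 (SE 0.63, edgeR adjusted p = 0.0652). Neither passed, where 0.516% of genes did. Without the vehicle library of day 6, which leaves only the GSK126 library on that day, the differences were 4.51 and 4.77. Between days 6 and 10 they were 1.86 (SE 0.47, edgeR adjusted p = 0.0850) and 1.45 (SE 0.50, edgeR adjusted p = 0.136), and neither passed, where 0.00697% of genes did. Without the GSK126 library of day 6 they were 2.85 and 2.43, and without the vehicle library of day 6 they were 1.17 and 0.78, and again neither passed.

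Whether the GSK126 difference itself changed between days was tested with 2 further terms, which leave 1 residual degree of freedom. On day 10, after removal of the compound, the log2 difference minus that on days 3 and 6 was -0.32 for Bglap (SE 0.90, edgeR adjusted p = 0.946) and -0.15 for Bglap2 (SE 0.97, edgeR adjusted p = 0.980), where DESeq2 gave the other sign (0.27). The standard errors are larger than these values, and removal and later culture cannot be told apart. The difference on day 3 minus that on days 6 and 10 was -1.74 for Bglap (SE 0.60, unadjusted p = 0.0341 by edgeR, adjusted p = 1) and -2.17 for Bglap2 (SE 0.57, unadjusted p = 0.0134 by edgeR, adjusted p = 1). In edgeR 0% of genes passed for either term, with 544 genes higher and 462 lower at an unadjusted p below 0.05 for day 10, and 355 higher and 241 lower for day 3. DESeq2 called 10 genes higher and 12 lower for day 10, and 31 higher and 30 lower for day 3, where Bglap2 was among the 30 at -2.18 (adjusted p = 0.0278). The limma-voom fit called 0 for both.

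The balance between both genes was described by the share of Bglap in their summed fragments. That share was 77.1% on day 3, 71.4% on day 6 and 75.8% on day 10 with GSK126, against 62.5%, 60.9% and 68.9% with vehicle. The exact binomial 95% intervals of each pair did not overlap on day 6 (70.1 to 72.6 with GSK126, 55.2 to 66.5 with vehicle) or on day 10 (75.0 to 76.5 with GSK126, 66.5 to 71.2 with vehicle). They overlapped on day 3 (70.9 to 82.6 with GSK126, 49.5 to 74.3 with vehicle), where only 210 and 64 fragments were counted. Over the 3 days the share was 10.7 percentage points higher with GSK126 (SD 3.88, n = 3 pairs; mean 74.8% with GSK126 and 64.1% with vehicle), higher in 3 of 3 pairs. An exact two-sided sign-flip permutation test gave p = 0.25, the smallest value that 3 pairs allow. Per length, from RPKM, the share was 71.8%, 65.3% and 70.3% with GSK126 and 55.7%, 54.1% and 62.6% with vehicle. How reads matching both copies were counted can move these shares, and its part was not tested.

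**Figure D3:**
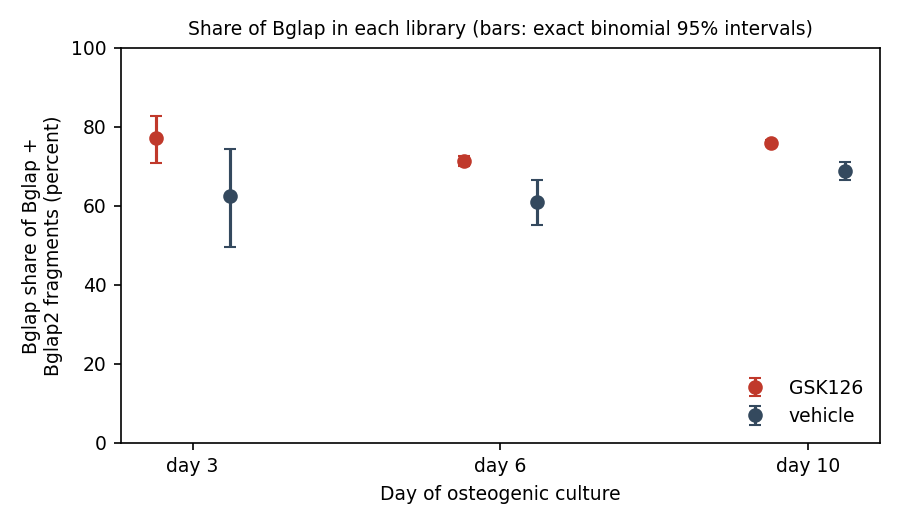
Share of Bglap in the summed Bglap and Bglap2 fragments of each RNA library, in percent, by day, with GSK126 in red and vehicle in dark blue. Bars are exact binomial 95% intervals for counting error. The GSK126 share is the higher one on each day, from 71.4% to 77.1% against 60.9% to 68.9% with vehicle.

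Among 18 known regulators of the osteocalcin promoter, 1 rose with GSK126 and none fell, at a median log2 difference of 0.13 beside -0.00076 over all genes tested, of which 1.01% rose and 0.272% fell. The member that rose was Dlx3, a homeodomain activator of osteocalcin. It had 486, 1724 and 1986 counts with GSK126 on days 3, 6 and 10, against 224, 748 and 896 with vehicle, higher in each pair. Its log2 difference was 1.19 (SE 0.10, edgeR adjusted p = 0.0197), and the call did not hold without day 6 (adjusted p = 0.105) or day 10 (adjusted p = 0.0974). Sp7, the zinc-finger factor osterix, had 16606, 23896 and 31184 counts with GSK126, against 11348, 11160 and 14004 with vehicle. Its difference was 0.97 (SE 0.14, edgeR adjusted p = 0.0504). The values for Dlx5, another homeodomain activator, were 0.83 (SE 0.14, adjusted p = 0.0653), and for Runx2, the runt-domain factor osteoblasts require, 0.45 (SE 0.10, adjusted p = 0.0934), both by edgeR. Runx2 RNA was abundant throughout, at 22880 to 39952 counts.

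The other regulators lay between -0.61 (Zfp521) and 0.44 (Dlx6), and none passed. Atf4, which binds OSE1, was at 0.32 (SE 0.16), and Vdr, the vitamin D receptor, at -0.05 (SE 0.16). Zfp521, a zinc-finger antagonist of RUNX2, was at -0.61 (SE 0.13, edgeR adjusted p = 0.0869), and Nr3c1, the glucocorticoid receptor, at -0.39 (SE 0.10, edgeR adjusted p = 0.116). Fosl2, an AP-1 subunit, had its difference on 1 day, with 53182 counts with GSK126 against 22236 with vehicle on day 6, and log2 ratios of -0.10 and -0.05 on days 3 and 10. With time, day 10 against day 3, 3 of the 18 regulators rose and 3 fell by edgeR, where 14.1% of all genes rose and 12.5% fell. Both counts are near that background. Those that rose were Dlx3 (2.28), Sp7 (0.86) and Dlx5 (0.65), and those that fell were Atf4 (-0.72), Msx2 (-0.69), a homeodomain repressor of osteocalcin, and Rxra (-0.32), the partner of the vitamin D receptor. The Dlx3 call held under all 15 alternatives, and the call was lost in 7 for Dlx5 and Rxra, 6 for Atf4 and Msx2, and 3 for Sp7. The losses of these 5 genes each included the fits without the GSK126 library of day 3, without that of day 10 and without the vehicle library of day 10. Runx2 was at -0.00 (SE 0.12) over the same interval.

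**Figure D4:**
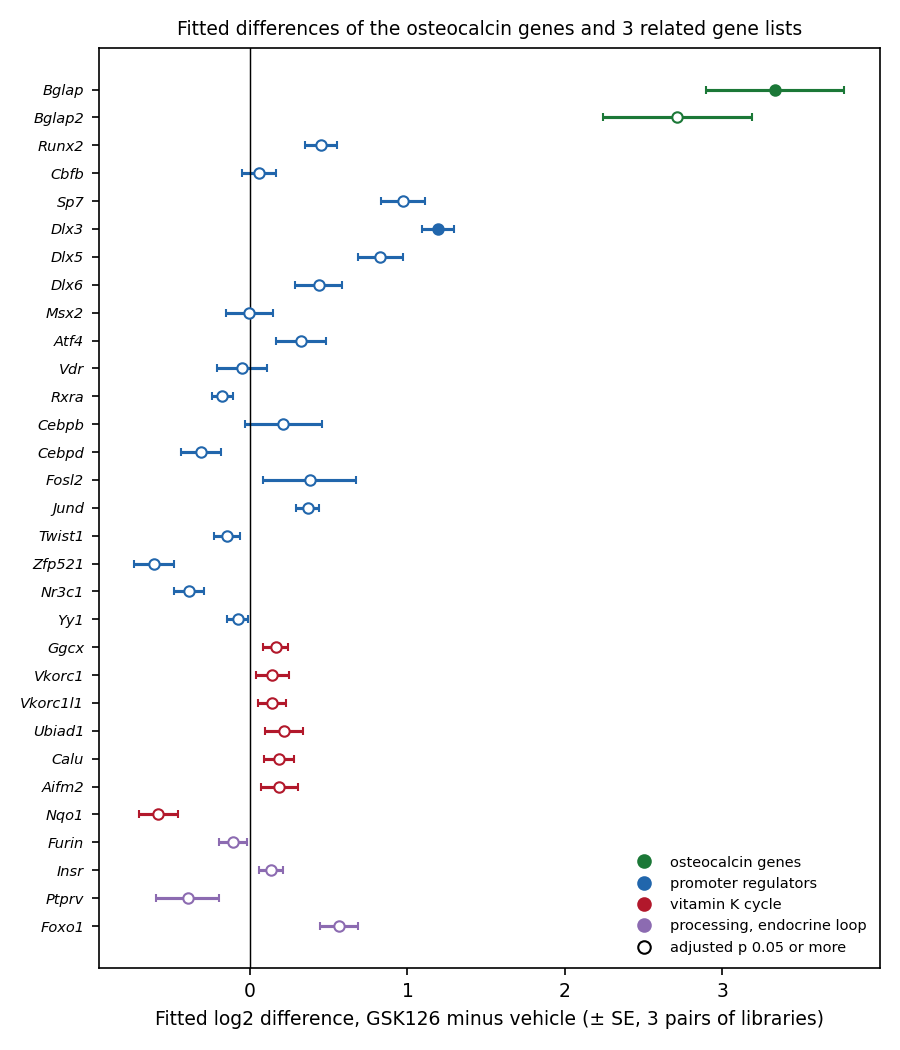
Fitted log2 difference, GSK126 minus vehicle, with its SE over 3 pairs of libraries, for Bglap, Bglap2, 18 promoter regulators, 7 vitamin K cycle genes and 4 tested genes of osteocalcin processing and its endocrine loop. Filled points passed an adjusted p of 0.05 by edgeR. Bglap at 3.34 and Dlx3 at 1.19 are the filled points, and every other gene but Bglap2 lies below 1.

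The enzymes that carboxylate osteocalcin were expressed in all libraries, and 0 of 7 vitamin K cycle genes rose or fell with GSK126 (median 0.16), where 1.01% of all genes rose and 0.272% fell, so a count of 0 is near that background. Ggcx, the gamma-carboxylase itself, had 11380, 14166 and 7538 counts with GSK126 on days 3, 6 and 10, against 11424, 12174 and 6694 with vehicle, a difference of 0.16 (SE 0.08, edgeR adjusted p = 0.329). Vkorc1, which regenerates reduced vitamin K, was at 0.14 (SE 0.11), and Nqo1, a quinone reductase, at -0.58 (SE 0.12, edgeR adjusted p = 0.0859). With time, Vkorc1 rose by 1.00 (edgeR adjusted p = 0.0128) and Aifm2, a vitamin K reductase, by 0.62 (edgeR adjusted p = 0.0339), while Ggcx fell by 0.42 (-0.42, edgeR adjusted p = 0.0321), where 14.1% of all genes rose and 12.5% fell. Of 15 alternatives, the call was lost in 7 for Aifm2, 4 for Ggcx and 3 for Vkorc1, and each of the 3 calls was lost without either day 3 library and without the vehicle library of day 10.

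Of 6 genes of osteocalcin processing and its proposed endocrine loop, 4 were tested and none rose or fell with GSK126 (1.01% and 0.272% of all genes) or with time (14.1% and 12.5% of all genes). Furin, the protease that cleaves the propeptide, was at -0.11 (SE 0.09) with GSK126, and Insr, the insulin receptor, at 0.13 (SE 0.08). Ptprv, a phosphatase gene also called Esp, was at -0.40 (SE 0.20), and Foxo1, a transcription factor, at 0.56 (SE 0.12, edgeR adjusted p = 0.0902). Gprc6a, a proposed osteocalcin receptor, had 0 counts in all 6 libraries, which allows up to 3 fragments per library. Gpr158, another proposed receptor, had 4 counts in 1 GSK126 library and 0 in the others.

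Osteocalcin shares its Gla residues with other vitamin K-dependent proteins. Of 14 such genes listed, 9 were tested and none rose or fell with GSK126, at a median of -0.09, where 1.01% of all genes rose and 0.272% fell. Mgp, the matrix Gla protein that inhibits calcification, had 70582, 27612 and 26032 counts with GSK126, against 77658, 40854 and 48978 with vehicle, a difference of -0.50 (SE 0.15, edgeR adjusted p = 0.162). Gas6, a ligand of TAM receptors, was at -0.24 (SE 0.15), and Pros1, protein S, at 0.03 (SE 0.11). With time F7 (2.40) and Prrg2 (0.68) rose and Mgp (-0.79) and Prrg4 (-1.91) fell by edgeR, where 14.1% of all genes rose and 12.5% fell. The call was lost in 7 of 15 alternatives for Prrg2, 5 of 14 for Prrg4, 4 of 15 for Mgp and 3 of 15 for F7, each time including those without the GSK126 library of day 3 and without the vehicle library of day 10. F7 and Prrg4 rest on 16 to 204 counts per library.

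Among 12 genes of osteoblast and osteocyte matrix, 11 were tested, 2 rose with GSK126 and none fell, and all 11 fitted differences were above 0 (median 0.55), where 1.01% of all genes tested rose, 0.272% fell and 49.8% were above 0. Ifitm5, an osteoblast membrane protein, rose by 3.03 (SE 0.29) and Ibsp, bone sialoprotein, by 2.18 (SE 0.22), each at an edgeR adjusted p of 0.0251. Neither call held without day 6 (edgeR adjusted p = 0.0679 for Ifitm5 and 0.105 for Ibsp) or day 10 (0.139 and 0.0918). Alpl, alkaline phosphatase, was at 1.11 (SE 0.26, edgeR adjusted p = 0.103), and the collagen I genes Col1a1 and Col1a2 were at 0.16 (SE 0.17) and 0.09 (SE 0.16). Spp1, osteopontin, had its widest log2 ratio on day 6 (1.57), with -0.00 on day 3 and 0.11 on day 10. With time 7 of the 11 rose and none fell by edgeR, from Phex (0.80) to Ifitm5 (4.64), where 14.1% of all genes rose and 12.5% fell. The number that rose ran from 2 to 7 over 15 alternatives, and the number of all genes that rose also varied widely over them.

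To find the genes most like osteocalcin, the mean-centred log2 CPM of 11079 genes was compared with the average of Bglap and Bglap2 over the 6 libraries. The root mean square distance of Bglap from Bglap2 was 0.42 on the log2 scale (Pearson r 0.991). That is their distance from each other. Each lay nearer than this to their average, from which the genes below were measured. The nearest 8 genes were Ifitm5 (0.42), Prex1 (0.48), Rab11fip4 (0.51), Fam167a (0.66), Ncf1 (0.68), Cd200 (0.80), Slc8a3 (0.81) and Prss35 (0.81), and 14 genes lay within 1. Ifitm5 had 388, 5082 and 11186 counts with GSK126 on days 3, 6 and 10, against 94, 428 and 1298 with vehicle, which is the order of the osteocalcin libraries. Prex1, a Rac exchange factor, had 146, 1570 and 4790 counts with GSK126, against 28, 134 and 410 with vehicle. Ranked by Pearson r instead, none of these 8 was among the first 8, since 276 genes reached an r of 0.95, many with much smaller changes, such as Tmco1 with a day 10 minus day 3 difference of 0.66. All genes share the same 6 libraries, and these distances are a description.

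The genes around the cluster were read in the same fit. Of the 10 nearest tested genes outside the osteocalcin cluster, 5 on each side, none rose or fell with GSK126, where 1.01% of all genes rose and 0.272% fell, with a median of 0.07 and a range from -0.08 to 1.13. Smg5, on the side of lower coordinates, was at 0.18 (SE 0.09), and Pmf1, the nearest gene beyond Bglap at 9.68 kb, was at -0.03 (SE 0.16). The value of 1.13 belonged to Paqr6, with 30, 16 and 16 counts with GSK126 against 20, 10 and 2 with vehicle. Sema4a, at 0.75 (SE 0.27, edgeR adjusted p = 0.215), was also low, with 32 to 74 counts per library. With time, Mex3a fell by 0.73 (-0.73, edgeR adjusted p = 0.0129) and no other neighbour passed, where 14.1% of all genes rose and 12.5% fell. The Mex3a call was lost without either day 3 library or the vehicle library of day 10.

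H3K27me3 at the cluster was read from the authors' island lists, 24947 islands in the GSK126 list and 34498 in the vehicle list. Neither list had an island within 100 kb of the cluster. Of all genes, 37.0% had none within that distance in the GSK126 list and 28.8% in the vehicle list, so this is a common state. The nearest island in the GSK126 list lay 172 kb away at chr3:88199001-88205800, with 88 ChIP and 67 input reads and an authors' fold of 2.18. In the vehicle list it lay 118 kb away at chr3:88253201-88260000, with 88 ChIP and 50 input reads and an authors' fold of 2.96. Within 250 kb there was 1 island in the GSK126 list and 4 in the vehicle list. None of the 18 promoter regulators had an island over its gene body in either list, against 14.8% of all genes in the GSK126 list and 17.1% in the vehicle list. Each list rests on 1 ChIP and 1 input library taken at 24 h, before the first RNA time point, and a signal under the calling threshold is not seen in it.

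**Figure D5:**
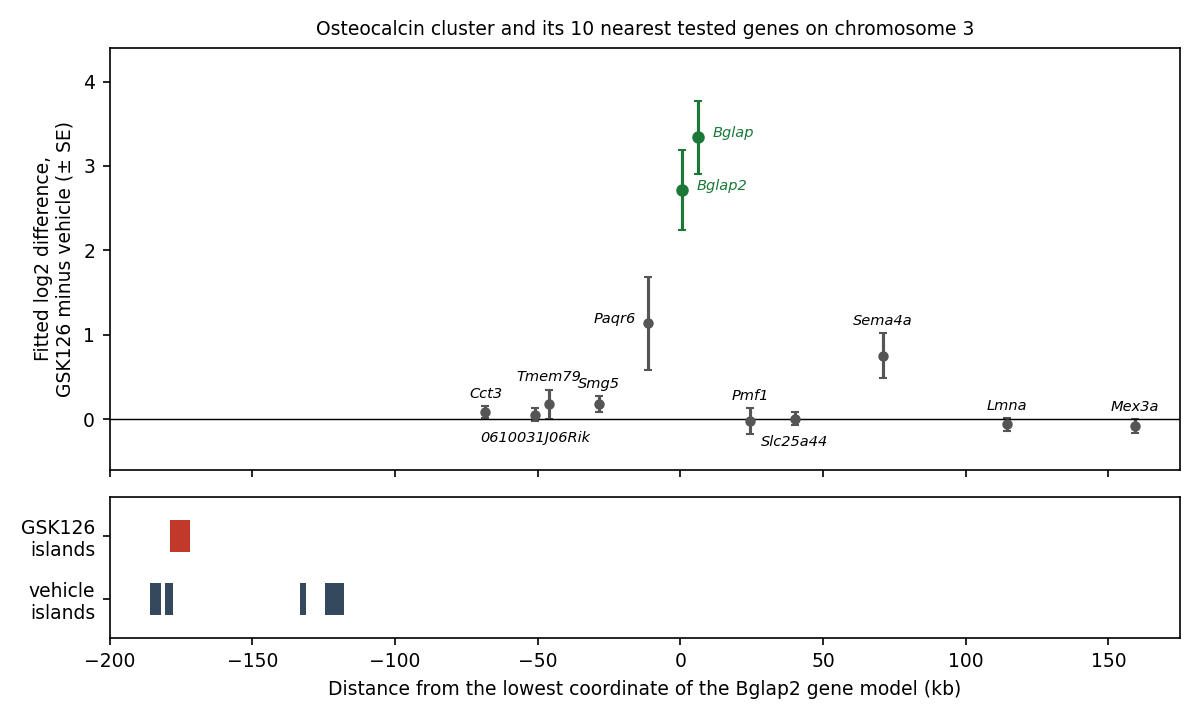
Upper panel: fitted log2 difference, GSK126 minus vehicle, with its SE, of Bglap and Bglap2 (green) and their 10 nearest tested genes (grey), against distance from Bglap2 in kb. Lower panel: the authors' H3K27me3 islands over the same stretch. Bglap is highest at 3.34, the neighbours lie from -0.08 to 1.13, and the nearest island is 118 kb away in the vehicle list and 172 kb in the GSK126 list.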

How the data were processed

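RNA libraries followed the TruSeq v2 mRNA protocol, per the labels' protocols. TopHat2 2.0.6, HTSeq 0.5.3p9, BWA 0.5.9, SICER 1.1, CASAVA 1.9 and mm10 are listed, per the submitters' processing notes. The treatment of reads with several matches, the gene annotation and the SICER settings were not given in the sources used here. Raw gene counts and RPKM values were deposited by the authors, the RPKM scaled by gene model length and library depth, per the file headers. The authors' island lists hold ChIP and input read counts, p-values, and a fold ratio of ChIP over input in the layout SICER writes, and starts were moved to 1-based positions on the assumption that SICER counts from 0.

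Counts were fitted over the whole table in R 4.3.3 by the quasi-likelihood test of edgeR 4.0.16 (TMM, filterByExpr on treatment, day and treatment as additive terms, 2 residual degrees of freedom), with Benjamini-Hochberg adjustment over 14344 genes and a threshold of 0.05. The biological coefficient of variation was 14.8%. The scripts were tested on simulated data. Rn45s, ribosomal RNA, took 4.37% to 7.47% of counts and was kept. Ratios for single days have exact binomial 95% intervals on fragments, and day log2 ratios used a prior count of 2; intervals cover counting error only, since reads are not independent molecules. Alternatives were DESeq2 1.42.0, limma-voom (limma 3.58.1), other scalings and filters, fragments in place of counts, Rn45s left out, Bglap and Bglap2 summed, and days or libraries left out.

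Named were Bglap, Bglap2, genes of the fixed lists, the 8 genes nearest in pattern among those with a mean log2 CPM of at least 1, and the 5 nearest tested genes on each side of the cluster. Some genes of the lists and region are not reported here. Tmco1 was chosen after its values were seen. The genes and lists were chosen with earlier results of these data known.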

Additional observations from a re-analysis of the deposited data

How the results depend on the processing

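No paired analysis was possible by replicate number, beyond the pairing by day that the reported fit already holds as a term, because the labels give no replicate numbers and each treatment and day has 1 library. Depth limits the day 3 values most, where Bglap2 had 48 fragments with GSK126 and 24 with vehicle. All fitted differences of Bglap and Bglap2 for GSK126, for day 6 against day 3, for day 10 against day 3 and for day 10 against day 6 kept their sign under every alternative run. The GSK126 call on Bglap held under 8 of 13 alternatives, with adjusted p from 2.15e-05 (DESeq2) to 0.747. It was lost with a CPM of at least 1 in 3 libraries (3.35), with Bglap and Bglap2 summed (3.10), without day 6 (2.74), without day 10 (3.45) and with no day term (3.40). The Bglap2 difference passed under 3 of 13, by DESeq2 (2.50), limma-voom (2.91) and without day 3 (3.19), with adjusted p from 0.00784 to 0.789 over all 13. Those 3 fits called 688, 198 and 202 of all genes higher, beside 145 in the reported fit.

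For day 6 against day 3, DESeq2 gave 3.59 for Bglap and 3.81 for Bglap2, and limma-voom gave 4.27 and 4.50, all past the threshold. Of all genes, DESeq2 called 998 higher in that comparison and limma-voom 74. Leaving out 1 library at a time gave 2.75 to 4.51 for Bglap and 2.79 to 4.95 for Bglap2. For day 10 against day 3 the same procedure gave 4.71 to 6.44 and 4.33 to 6.50. Where it leaves 1 library in a day, that library is assumed to vary like the others. The DESeq2 estimate for Bglap2 of the change in difference on day 10 had the opposite sign, at 0.27 (adjusted p = 1.00), and on day 3 DESeq2 gave -2.18, past the threshold. The cause of these changes was not tested.

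By RPKM the Bglap share moved to 65.3% on day 6 and 70.3% on day 10 with GSK126, and to 54.1% and 62.6% with vehicle, since the models differ in length. Widening the window to 250 kb gave 1 island in the GSK126 list and 4 in the vehicle list, and 50 kb or an adjusted p below 1e-05 gave 0 in both. Counts of genes called varied widely, for GSK126 from 0 to 688 higher (145 as reported) and 0 to 635 lower (39), and for day 10 against day 3 from 48 to 2431 higher (2026) and 22 to 2644 lower (1793). For day 6 against day 3 they ran from 1 to 998 higher (74) and 5 to 744 lower (34), and for day 10 against day 6 from 0 to 1118 higher (1) and 0 to 1018 lower (0). The most calls for GSK126 came from DESeq2 and the fewest without a day term. Scaling by library size alone moved the median of all genes for day 10 against day 3 to -0.11 and turned the calls to 1484 higher and 2644 lower. Among the promoter regulators, the number that rose with GSK126 ran from 0 to 5 and the number that fell from 0 to 2, and among the matrix genes the number that rose ran from 0 to 4. These ranges come from the same 13 alternatives over which calls among all genes ran from 0 to 688 higher and 0 to 635 lower.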
